A study of Mus musculus with 14 samples.

Results

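The CDK inhibitors and the D-type cyclins are the genes that set how readily a cell leaves G1 and begins to copy its DNA. They comprise 3 Cip/Kip inhibitors (Cdkn1a, Cdkn1b and Cdkn1c), 4 INK4 inhibitors (Cdkn2a, Cdkn2b, Cdkn2c and Cdkn2d) and 3 D-type cyclins (Ccnd1, Ccnd2 and Ccnd3). The members were taken by name, with no threshold on a measured value, although earlier results of these data were known when they were proposed, and all 10 were found among the 55487 genes counted in every library. D-type cyclins bind CDK4 and CDK6 and switch them on, and the active kinases phosphorylate the retinoblastoma protein, which then releases the E2F factors that drive S-phase genes. INK4 proteins bind CDK4 and CDK6 and keep the cyclin out, whereas Cip/Kip proteins bind cyclin-CDK complexes and restrain above all CDK2. In blood formation p57 (Cdkn1c) and p27 (Cdkn1b) are known for holding stem cells in quiescence, and p18 (Cdkn2c) for limiting their self-renewal.

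RNA sequencing covered LSK cells (Lin-Sca1+c-kit+, the fraction that holds the stem cells), LK cells (Lin-c-kit+, mostly committed progenitors) and cultured marrow mesenchymal stromal cells (MSC). LSK and LK cells came from Jak2VF/+ mice, which carry 1 Jak2V617F allele, the kinase mutation of myeloproliferative neoplasm. They had been given PBS or IL-1β (0.5 µg per dose in the methods) 3 times a week for 16 weeks, and each population has 3 PBS and 2 IL-1β libraries. MSC were grown for 21 days from the marrow of wild-type C57BL/6 mice and exposed for 72 h to PBS or to IL-1β at 5 ng/ml, with 2 libraries each. In the LSK and LK mice the mutation was switched on by Mx1Cre, which responds to interferon and is not limited to blood cells, and their marrow was carried by lethally irradiated C57BL/6 hosts. Both the PBS and the IL-1β mice carry Mx1Cre and the mutation, so the series holds no wild-type LSK or LK cells. No label says which libraries come from 1 mouse or from pooled mice, and the p-values measure the spread between these libraries.

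The libraries held 4393233 to 30871055 counted read pairs, and both IL-1β libraries of LSK (4393233 and 8641124) and of LK cells (6367352 and 7652483) were shallower than the PBS libraries of the same population (at least 12172400). Depth and treatment therefore cannot be told apart in those cells. The gates matched Ly6a and Kit, which encode Sca1 and c-kit. Ly6a lay at 13.7 to 38.0 CPM (counts scaled to library size, TMM over all 14 libraries) in LSK and at 0.251 to 1.83 CPM in LK libraries. Kit, which both gates require, lay at 267.5 to 532 CPM in LSK and at 274 to 336 CPM in LK libraries. The MSC libraries went against their label in part. The 18 macrophage markers together reached 27251 to 31084 CPM with PBS and 54811 to 56158 CPM with IL-1β, against 2222 to 4447 CPM and 5135 to 5512 CPM for the 15 mesenchymal markers. Lyz2 alone made up 8433 and 5819 CPM of the macrophage sums with PBS and 25042 and 24888 CPM with IL-1β. The median over the macrophage markers was 810 to 912 CPM with PBS and 903 to 1023 CPM with IL-1β. Of the mesenchymal markers Col1a1 (492 to 1569 CPM), Cxcl12 (84.8 to 361 CPM), Prrx1 (63.3 to 96.2 CPM) and Pdgfra (25.2 to 44.7 CPM) were expressed in all 4 MSC libraries and lay at or near 0 in LSK and LK cells, whereas Lepr was at 0 in both PBS libraries of MSC and Nt5e at 0.274 to 1.37 CPM in all 4. Some mesenchymal markers did not set MSC apart from the blood cells. Eng lay at 52.5 to 77.6 CPM in MSC and at 91.0 to 158 CPM in LK libraries. Pdgfrb lay at 51.2 to 90.9 CPM in MSC and 33.9 to 70.7 CPM in LSK libraries, and Thy1 at 15.3 to 20.9 CPM and 12.8 to 35.4 CPM. Replicate 3 of the PBS-treated MSC had no Xist count, where the other MSC libraries had 325 to 2103. In LSK libraries Xist had 9502 to 17985 counts with PBS and 3371 and 563 with IL-1β. In LK libraries it had 4810 to 19671 with PBS and 4070 and 2932 with IL-1β. These Xist counts are not scaled to depth. The libraries of the stromal cultures are called MSC below by their label.

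Sequence ahead of the start sites of Cdkn1a and of 3 INK4 genes is shown first, so that the inhibitors whose values are compared below can be set side by side. Each stretch is the 250 bases before the annotated start, as RefSeq gives them on GRCm38.p6, which were listed for 7 of the 10 members (not Cdkn1c, Ccnd1 or Ccnd2). Capitals mark 3 motifs searched on both strands: the GC box GGGCGG, the E2F motif TTTNNCGC and the p53 half-site consensus. In the same window, 32.7% of 32807 promoters hold a GC box, 4.28% the E2F motif and 7.13% a p53 half-site. Cdkn1a is shown at its upstream start (chr17:29090729-29090978, plus strand). Cdkn2a is shown at its upstream start, that of the transcript for p19Arf (chr4:89294620-89294869, minus strand), and at its downstream start, that of the transcript for p16Ink4a (chr4:89282193-89282442). Cdkn2c at its upstream start (chr4:109666757-109667006) and Cdkn2d (chr9:21291210-21291459), both on the minus strand, are the INK4 genes of the blood cells.
Cdkn1a upstream start: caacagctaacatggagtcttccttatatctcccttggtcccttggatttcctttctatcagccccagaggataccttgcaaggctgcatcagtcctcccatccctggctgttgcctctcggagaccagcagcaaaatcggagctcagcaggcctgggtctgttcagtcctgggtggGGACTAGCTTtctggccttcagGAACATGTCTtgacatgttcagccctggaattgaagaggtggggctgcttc
Cdkn2a upstream start: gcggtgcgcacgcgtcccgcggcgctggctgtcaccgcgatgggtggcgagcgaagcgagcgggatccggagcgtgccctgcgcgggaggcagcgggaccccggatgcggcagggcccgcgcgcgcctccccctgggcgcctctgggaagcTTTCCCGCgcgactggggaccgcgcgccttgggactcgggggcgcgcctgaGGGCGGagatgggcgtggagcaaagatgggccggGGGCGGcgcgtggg
Cdkn2a downstream start: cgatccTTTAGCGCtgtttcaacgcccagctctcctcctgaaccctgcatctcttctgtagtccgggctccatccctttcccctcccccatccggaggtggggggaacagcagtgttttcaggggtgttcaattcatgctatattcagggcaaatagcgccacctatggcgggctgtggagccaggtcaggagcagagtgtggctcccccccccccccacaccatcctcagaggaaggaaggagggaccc
Cdkn2c: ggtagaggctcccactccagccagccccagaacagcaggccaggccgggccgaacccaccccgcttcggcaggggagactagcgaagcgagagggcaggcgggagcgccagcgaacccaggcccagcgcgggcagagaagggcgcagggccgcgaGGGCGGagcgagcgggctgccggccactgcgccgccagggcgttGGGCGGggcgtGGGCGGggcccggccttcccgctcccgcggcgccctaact
Cdkn2d: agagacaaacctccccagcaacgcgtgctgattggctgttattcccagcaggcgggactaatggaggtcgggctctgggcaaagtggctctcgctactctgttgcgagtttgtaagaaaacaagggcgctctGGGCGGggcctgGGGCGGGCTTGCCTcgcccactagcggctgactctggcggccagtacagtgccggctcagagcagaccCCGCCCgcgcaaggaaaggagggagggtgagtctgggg
The Cdkn1a stretch shown holds 2 p53 half-sites and no GC box. The stretch at its downstream start (chr17:29093519-29093768), not shown, holds 2 GC boxes and no p53 half-site. The Cdkn2a stretches hold 1 E2F match each, and the upstream one also has 2 GC boxes and a GC content of 78.4%. The Cdkn2c and Cdkn2d stretches shown hold 3 GC boxes each and no E2F match, and in Cdkn2d a p53 half-site shares bases with a GC box. The stretch at the downstream start of Cdkn2c (chr4:109665373-109665622), not shown, holds no GC box and no E2F match. An E-box (CACGTG) and the NF-κB consensus were also searched, and neither was found in the 11 stretches listed for these genes. A match describes letters only.

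The levels separated the populations first. Cdkn2a and Cdkn2b, neighbours on chromosome 4 that are silent in most young tissues, had at most 5 counts in any LSK or LK library. In LSK cells Cdkn2a had 1, 0 and 3 counts with PBS and none with IL-1β, and Cdkn2b had none in any of the 5 libraries. A count of 0 allows up to 3 counts, which corresponds to 0.154 to 0.665 CPM in LSK and 0.151 to 0.446 CPM in LK libraries. In MSC Cdkn2a lay at 87.7 and 72.9 CPM with PBS. The other 8 members were counted in every library. No difference between MSC and the blood cells was tested, since genotype, culture and cell type all differ.

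**Figure D1:**
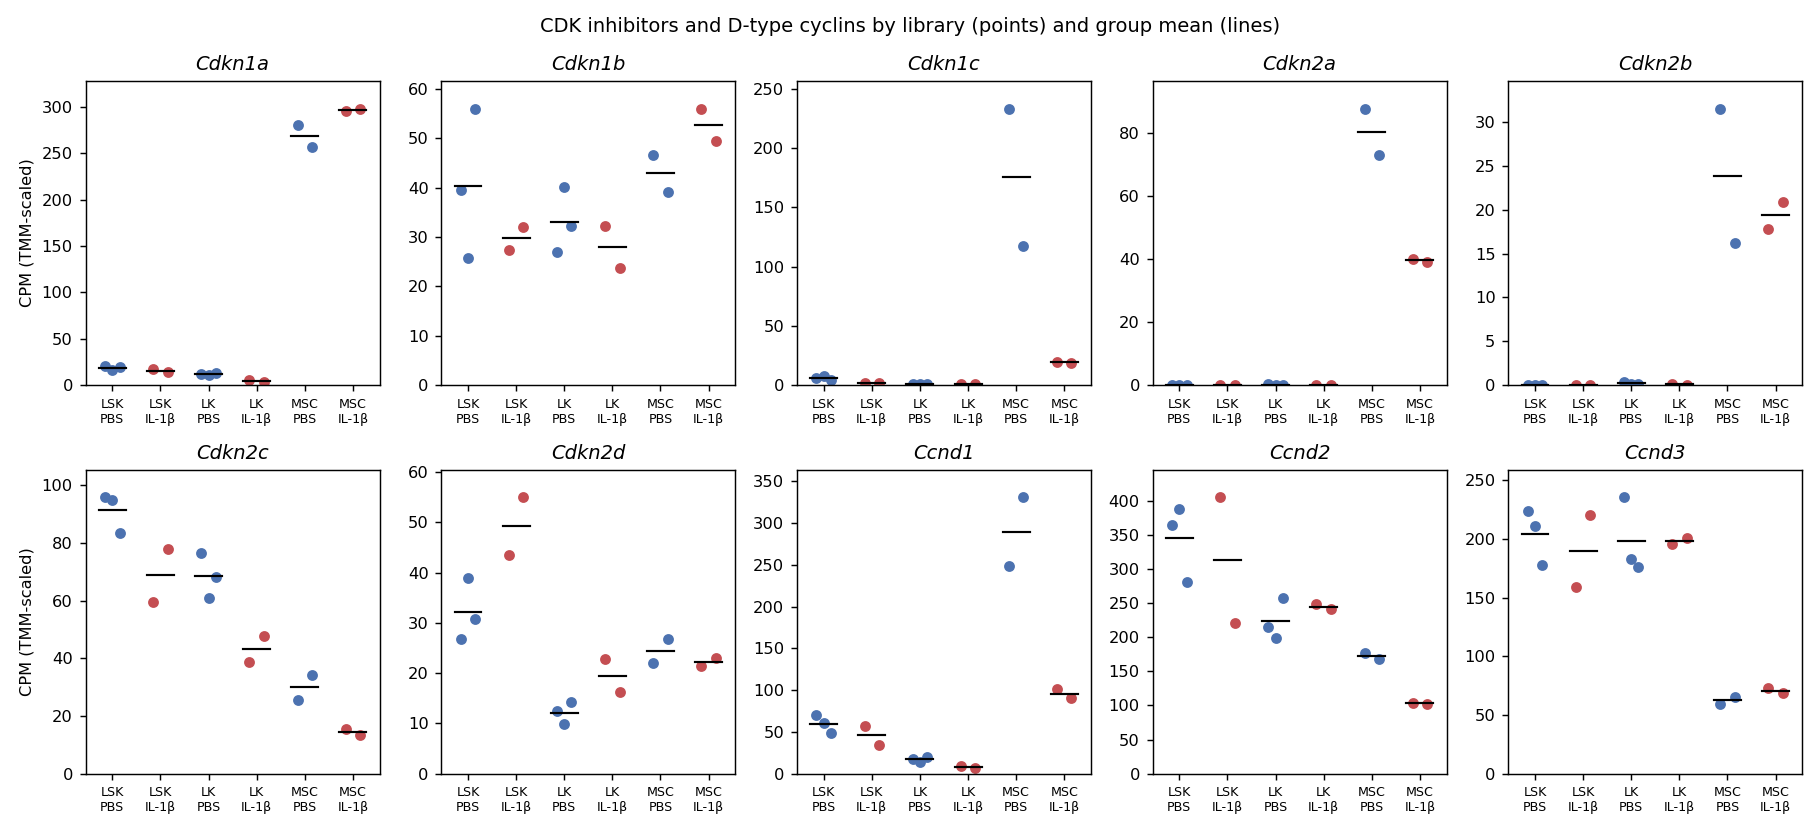
Level of each gene in CPM (vertical axes, linear, from 0) in the 6 groups, with 1 point per library, blue for PBS and red for IL-1β, and a line at the group mean. Cdkn2a and Cdkn2b lie at or near 0 in all LSK and LK libraries, and Cdkn1c falls from 233 and 117 CPM to 19.7 and 18.5 CPM in MSC with IL-1β.

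Per length, the class make-up differed between populations. On the TPM scale (counts per gene length, scaled to a fixed sum per library), Cdkn1b was the most abundant Cip/Kip gene in all LSK and LK libraries, with 40.8% to 62.6% of the summed Cip/Kip TPM in PBS-treated LSK and 62.5% to 72.9% in PBS-treated LK cells. In PBS-treated MSC it made up only 5.05% to 6.22%, and Cdkn1a (38.7% and 52.2%) and Cdkn1c (56.2% and 41.6%) made up the rest. Among the D cyclins, Ccnd1 took 67.3% and 73.5% in PBS-treated MSC, 16.4% to 18.9% in LSK and 6.62% to 8.26% in LK cells. In LSK and LK cells the INK4 transcripts were almost wholly Cdkn2c and Cdkn2d, whereas Cdkn2a alone was 60.0% and 61.8% of INK4 TPM in PBS-treated MSC.

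**Figure D2:**
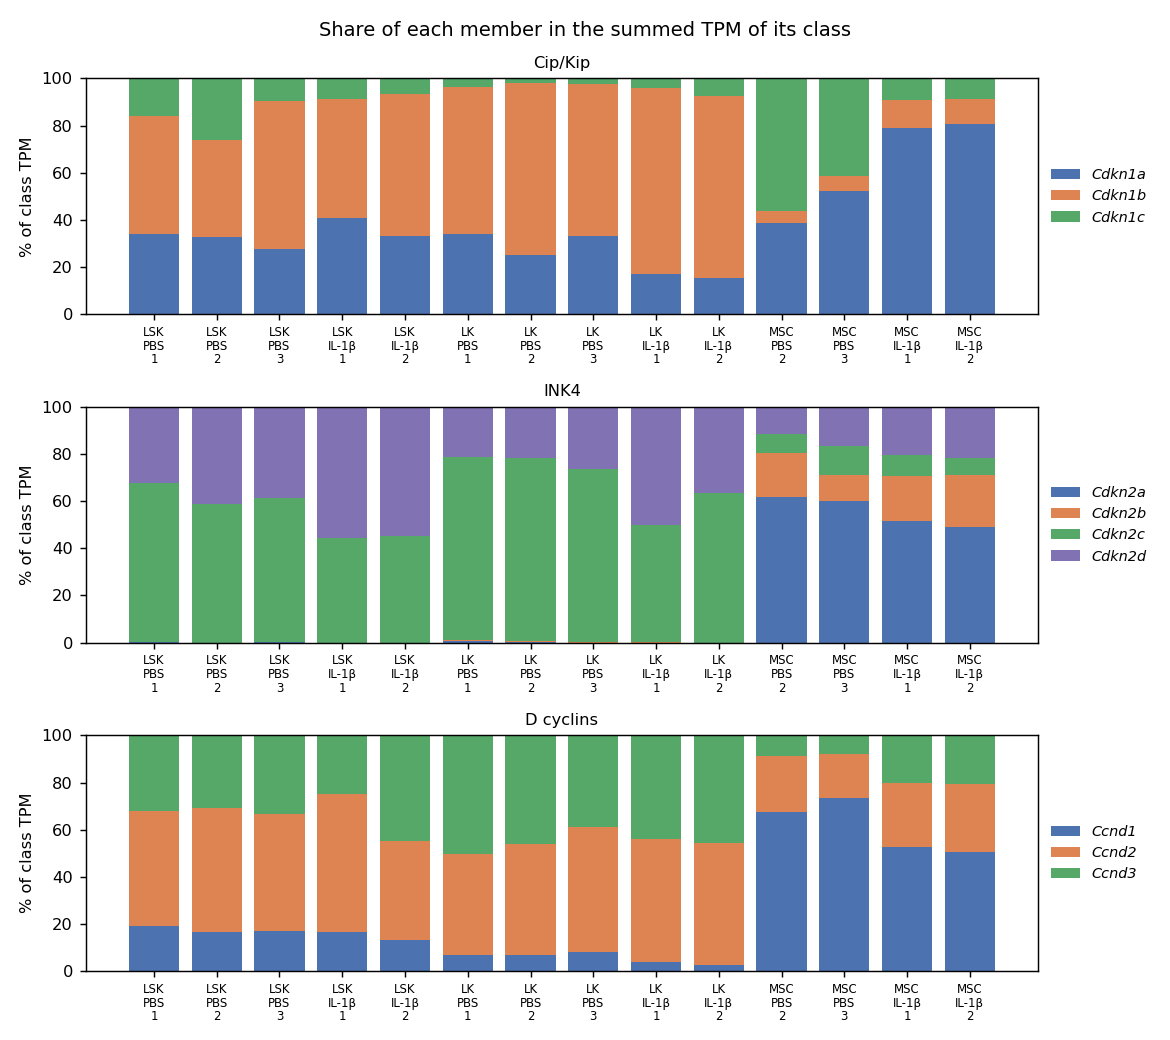
Percent of the summed TPM of each class (stacked bars from 0 to 100%) that each gene takes in each of the 14 libraries. Cdkn2d takes 54.6% and 55.4% of INK4 TPM in IL-1β-treated LSK libraries against 32.3% to 41.2% with PBS, and Cdkn2a is visible only in MSC.

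In LSK cells none of the 8 members that could be tested changed with IL-1β by edgeR's quasi-likelihood test. A change was called where the Benjamini-Hochberg adjusted p over all 13132 genes was under 0.05 and the log2 fold change passed 0.5 in either direction. At these thresholds 0.632% of all genes were called. The spread of this fit was wide, with a biological coefficient of variation of 0.377. By unadjusted p, 2431 genes were under 0.05. DESeq2 and limma-voom also called 0 members. By unadjusted p, Cdkn1c (0.0369) was the only member under 0.05.

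Cdkn1c (chr7:143458339-143461050, minus strand), which encodes p57, lay at 5.69, 7.42 and 3.91 CPM in PBS replicates 1, 2 and 3 of LSK cells and at 2.08 and 1.55 CPM in IL-1β replicates 1 and 2. Both IL-1β libraries were below all PBS libraries, but they rest on 19 and 7 counts. The log2 fold change was -1.62 ± 0.67 (SE; edgeR adjusted p = 0.241). Across the 14 alternatives run, it stayed between -1.86 and -1.36 and never passed the threshold. Marker genes of the gate moved beside it. The 7 stem cell markers used summed to 1292 to 1635 CPM with PBS and 738 to 845 CPM with IL-1β, and Flt3 and Hlf were called lower (2 of 7, none higher). The neutrophil granule markers (13) went from 1990 to 2802 CPM up to 9054 to 10518 CPM, with 4 of 12 tested called higher. Mpo alone made up 1628 to 2021 CPM of these sums with PBS and 6640 and 6593 CPM with IL-1β, and all 12 tested had a positive log2 fold change. The part of the stem cell and neutrophil granule markers in the Cdkn1c values was not tested. In these bulk libraries fewer cells of a type and less RNA per cell cannot be told apart.

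The INK4 genes of LSK cells pointed in opposite directions without passing the test. Cdkn2d (chr9:21288410-21291407, minus strand), which encodes p19Ink4d, lay at 26.8, 39.0 and 30.8 CPM with PBS and at 43.5 and 55 CPM with IL-1β, so that the groups did not overlap. Its log2 fold change was 0.61 ± 0.28 (edgeR adjusted p = 0.277). Cdkn2c (chr4:109660876-109667189, minus strand), which encodes p18, lay at 95.8, 94.8 and 83.5 CPM with PBS and at 59.7 and 78.0 CPM with IL-1β, again without overlap and with a log2 fold change of -0.41 ± 0.25 (edgeR adjusted p = 0.393). Libraries that do not overlap are common here: 39.5% of all genes tested were separated in this way. The share of Cdkn2d in INK4 TPM, which does not depend on scaling between libraries, was 54.6% and 55.4% with IL-1β and 32.3% to 41.2% with PBS.

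The remaining LSK members overlapped between treatments. Cdkn1a (p21, the p53-induced inhibitor) gave a log2 fold change of -0.27 ± 0.33, Cdkn1b of -0.45 ± 0.36, Ccnd1 of -0.38 ± 0.30, Ccnd2 of -0.14 ± 0.30 and Ccnd3 of -0.11 ± 0.25. The D cyclins varied most between the IL-1β libraries. Ccnd2 stood at 405 CPM in replicate 1, above every PBS library (281 to 388 CPM), and at 221 CPM in replicate 2, below every one. The sign of Ccnd2 turned without replicate 2 of IL-1β (0.25) and that of Ccnd3 without replicate 1 (0.11). The members' median log2 fold change was -0.33, beside -0.06 over all genes tested.

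In LK cells 3 of the 8 members tested fell with IL-1β and none rose. These were Cdkn1a, Cdkn2c and Ccnd1, an inhibitor from each family and the D cyclin that per length (TPM) is lowest in these cells. Over all 12835 genes, 2.57% were called lower and 6.77% higher. PBS and IL-1β libraries were fully separated for 5 of the 8 members and for 48.5% of all genes.

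Cdkn1a (chr17:29090976-29100727, plus strand) lay at 11.4, 10.9 and 13 CPM in PBS replicates 1, 2 and 3 of LK cells and at 5.37 and 3.72 CPM in IL-1β replicates 1 and 2. Both IL-1β libraries were below all PBS libraries. It fell by 1.29 ± 0.27 on the log2 scale (edgeR adjusted p = 0.0215), on 44 and 25 counts with IL-1β. Cdkn2c lay at 76.4, 60.8 and 68.1 CPM with PBS and at 38.6 and 47.7 CPM with IL-1β. It fell by 0.59 ± 0.15 on the log2 scale (edgeR adjusted p = 0.0385), close to the fold threshold. Ccnd1 (chr7:144929931-144939925, minus strand), the cyclin D1 gene and a common target of mitogen signals, lay at 17.5, 14 and 20.1 CPM with PBS and at 8.91 and 6.39 CPM with IL-1β. It fell by 1.08 ± 0.26 on the log2 scale (edgeR adjusted p = 0.0325).

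These 3 calls rested on few libraries. None was left without PBS replicate 1, IL-1β replicate 1 or IL-1β replicate 2, and without PBS replicate 2 Ccnd1 alone was called, while the direction was the same each time. In limma-voom, and when LSK and LK libraries were fitted jointly, only Cdkn1a stayed called.

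Cdkn2d did not pass the main test in LK cells. It lay at 12.4, 9.89 and 14.2 CPM with PBS and at 22.8 and 16.2 CPM with IL-1β, so both IL-1β libraries were above all PBS libraries. The log2 fold change was 0.76 ± 0.24 (edgeR adjusted p = 0.0797), and DESeq2 called it (adjusted p = 0.0489), as did the fit with no filter on low counts (adjusted p = 0.0173). Its share of INK4 TPM was 50.1% and 36.7% with IL-1β against 21.4% to 26.2% with PBS. Cdkn1c was near the floor in LK cells, with 9, 9 and 7 counts with PBS and 6 and 7 with IL-1β, and its log2 fold change of 0.77 ± 0.69 (edgeR adjusted p = 0.537) was not detectable as a change at this depth.

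The D cyclins that dominate LK cells did not pass the test. Ccnd2 (chr6:127125162-127152193, minus strand) lay at 199 to 257 CPM with PBS and at 248 and 242 CPM with IL-1β (log2 fold change 0.21 ± 0.12). Ccnd3 (chr17:47505051-47599691, plus strand) lay at 176 to 235 CPM with PBS and at 196 and 201 CPM with IL-1β (0.08 ± 0.13). Cdkn1b (chr6:134920401-134925513, plus strand) overlapped as well, with a log2 fold change of -0.17 ± 0.21. The members' median log2 fold change was -0.04, beside -0.03 over all genes tested.

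The p53 pathway holds Cdkn1a's best known upstream regulator, and of its 14 other listed genes tested in LK cells 4 fell and 1 rose. Over all genes tested, 2.57% were called lower and 6.77% higher. Trp53, which encodes p53, gave a log2 fold change of -0.37 ± 0.09 (edgeR adjusted p = 0.0383), short of the fold threshold. Phlda3, an inhibitor of AKT signalling, fell by 2.06 ± 0.45 on the log2 scale (edgeR adjusted p = 0.0268), Zmat3 by 1.15 ± 0.23 (adjusted p = 0.0179), Sesn2 by 0.81 ± 0.21 (adjusted p = 0.0453) and Sesn1 by 0.71 ± 0.14 (adjusted p = 0.0163). Pmaip1, which encodes the pro-apoptotic protein NOXA, rose by 2.78 ± 0.32 (adjusted p = 0.00305). Among the listed genes not called were Mdm2 (-0.12 ± 0.14), Bax (-0.09 ± 0.15) and Btg2 (-0.17 ± 0.34). The median of the list was -0.38, beside -0.03 over all genes tested. The part of p53 in the fall of Cdkn1a was not tested. Of the CDK partners and pocket proteins (6), the E- and A-type cyclins (3 of 4 tested), the p27 turnover genes (9) and the proliferation genes (20), none was called in LK cells, and of the E2F and DP factors (10) only Tfdp2 was, at -0.63 ± 0.15 (edgeR adjusted p = 0.0335). The kinases themselves gave log2 fold changes of -0.16 ± 0.12 (Cdk2), -0.01 ± 0.10 (Cdk4) and 0.28 ± 0.13 (Cdk6). None of these 6 lists had a called gene in LSK cells.

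Cell type markers moved with these values in LK cells too. The neutrophil granule markers summed to 4333 to 9234 CPM with PBS and 16974 to 19820 CPM with IL-1β (8 of 12 tested called higher). Mpo alone made up 3125 to 6597 CPM of these sums with PBS and 11932 and 10480 CPM with IL-1β. The erythroid markers fell from 5118 to 6931 CPM down to 3084 to 3544 CPM (6 of 14 called lower, none higher). Of these sums Car2 made up 1381 to 2135 CPM with PBS and 685 and 878 CPM with IL-1β. Car1 made up 1386 to 1746 CPM and 979 and 1077 CPM, and Tfrc 930 to 1375 CPM and 798 and 794 CPM. All 14 log2 fold changes were negative, but Hba-a1, Alas2 and Slc4a1 overlapped between treatments and were not called. The part of these cell type markers in the changes of Cdkn1a, Cdkn2c and Ccnd1 was not tested.

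**Figure D3:**
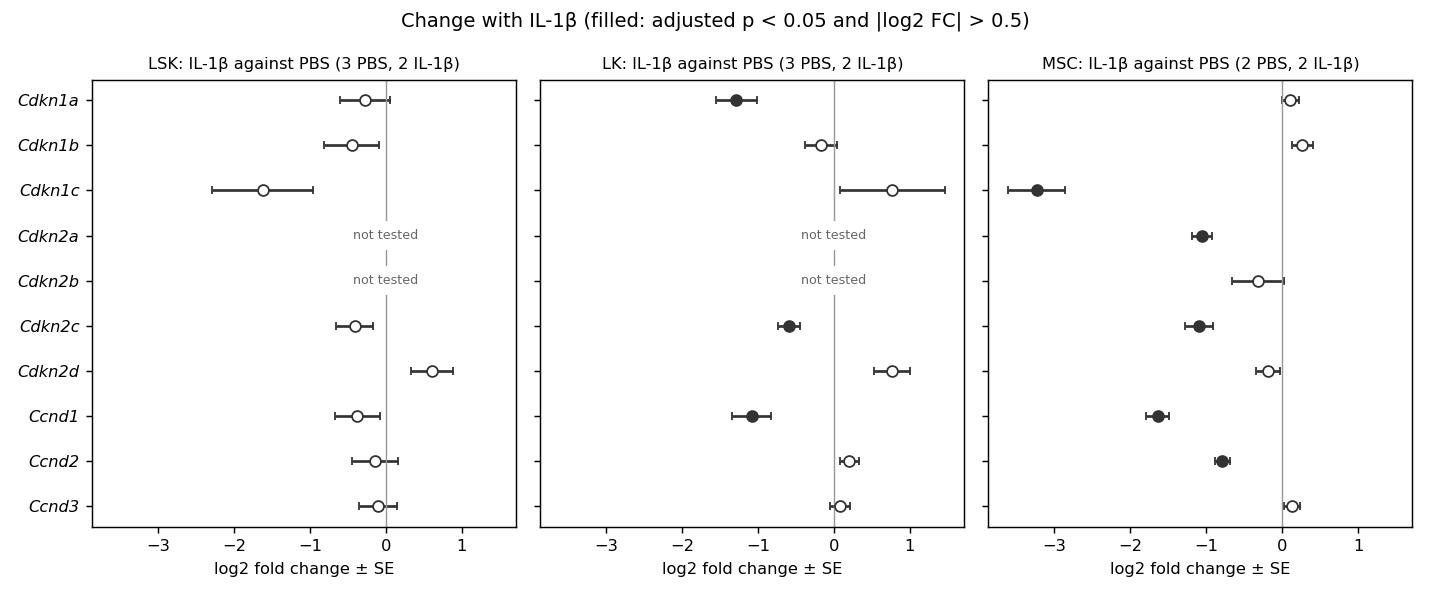
Log2 fold change of IL-1β against PBS (horizontal axis) with its standard error for each gene in LSK, LK and MSC libraries, with filled points for called genes. Filled points lie left of 0 in LK (3) and MSC (5), and LSK has none.

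In MSC 5 of the 10 members fell with IL-1β and none rose: Cdkn1c, Cdkn2a, Cdkn2c, Ccnd1 and Ccnd2. Over all 13239 genes, 4.31% were called lower and 7.14% higher. Higher genes made up 62.4% of the calls under TMM scaling and 49.6% under upper-quartile scaling, and the same number of members (5) was called lower under either. With all 14 libraries scaled together, libraries did not overlap between treatments for 8 of the 10 members, beside 59.6% of all genes. Of these 8, Cdkn1a overlapped when the 4 MSC libraries were scaled alone. The members' median log2 fold change was -0.55, beside 0.00 over all genes tested.

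Cdkn1c gave the largest change of the 10 members in MSC. It lay at 233 and 117 CPM in PBS replicates 2 and 3 and at 19.7 and 18.5 CPM in IL-1β replicates 1 and 2, with a log2 fold change of -3.23 ± 0.38 (edgeR adjusted p = 0.014). The PBS libraries differed widely from each other, and the log2 fold change was -2.63 without PBS replicate 2 and -3.66 without replicate 3. Its share of Cip/Kip TPM went from 56.2% and 41.6% to 9.17% and 8.73%.

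Cdkn2a (chr4:89274471-89294653, minus strand) lay at 87.7 and 72.9 CPM with PBS and at 40.0 and 39.2 CPM with IL-1β. It fell by 1.05 ± 0.14 on the log2 scale (edgeR adjusted p = 0.0102). The count of this gene joins the transcripts of p16Ink4a and p19Arf, so the values do not say which start was used. Cdkn2c lay at 25.4 and 34.4 CPM with PBS and at 15.5 and 13.4 CPM with IL-1β, and fell by 1.09 ± 0.18 (edgeR adjusted p = 0.0216). Cdkn2b (chr4:89306299-89311039, minus strand), which encodes p15, overlapped: 31.5 and 16.2 CPM with PBS and 17.9 and 20.9 CPM with IL-1β. The PBS libraries lay on either side of the IL-1β libraries, and the log2 fold change of Cdkn2b turned from -0.31 ± 0.34 to 0.22 without PBS replicate 2, and to -0.78 without replicate 3, where it was called (edgeR adjusted p = 0.00329).

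Among the D cyclins, Ccnd1 lay at 249 and 331 CPM with PBS and at 101 and 90.4 CPM with IL-1β. It fell by 1.64 ± 0.15 on the log2 scale (edgeR adjusted p = 0.00416), a 3.11-fold decrease. Ccnd2 lay at 177 and 168 CPM with PBS and at 104 and 102 CPM with IL-1β, and fell by 0.78 ± 0.10 (edgeR adjusted p = 0.0106). Ccnd3 was not called, at 59.3 and 65.7 CPM with PBS and 72.7 and 68.4 CPM with IL-1β (log2 fold change 0.13 ± 0.10). With PBS the summed D cyclin TPM was 204 and 226, and IL-1β cultures had 96.7 and 91.9.

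Cdkn1a, Cdkn1b and Cdkn2d did not pass the test in MSC. Cdkn1a stayed high, at 280 and 256 CPM with PBS and 296 and 298 CPM with IL-1β (log2 fold change 0.11 ± 0.11), and its libraries overlapped when the 4 MSC libraries were scaled alone. Cdkn1b gave 0.27 ± 0.14 and Cdkn2d -0.19 ± 0.16. The calls depended on having both IL-1β libraries: without replicate 1 or without replicate 2 no member was called, while all 5 kept their direction (Cdkn1c at -3.24 and -3.23, Cdkn2a at -1.03 and -1.08).

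Proliferation genes fell in the same cultures. Of the 20 listed, 10 were called lower and none higher, all 20 values were negative, and the median log2 fold change was -0.69. Birc5 fell by 1.61 ± 0.18 on the log2 scale (edgeR adjusted p = 0.00738), Pcna by 1.47 ± 0.20 (adjusted p = 0.0119), Mki67 by 1.35 ± 0.15 (adjusted p = 0.00762) and Rrm2 by 1.28 ± 0.16 (adjusted p = 0.00979). Cdk6, a partner of the D cyclins, fell by 0.65 ± 0.14 (edgeR adjusted p = 0.0368). Cdk4 gave -0.38 ± 0.10 (adjusted p = 0.0624) and Cdk2 0.10 ± 0.13. Of the other lists, Ccna2 (-0.98 ± 0.16), Gadd45a (-0.73 ± 0.15), Plk2 (-1.13 ± 0.14) and Cks1b (-0.93 ± 0.16) were called lower, Rnf123 (0.53 ± 0.11) higher, and none of the E2F and DP factors was called.

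The macrophage markers rose beside these values, with 9 of 18 called higher and none lower. Of the mesenchymal markers 1 of 13 tested was called, Vcam1, which was higher. Whether the macrophage share of the cultures bears on the members' changes was not tested.

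**Figure D4:**
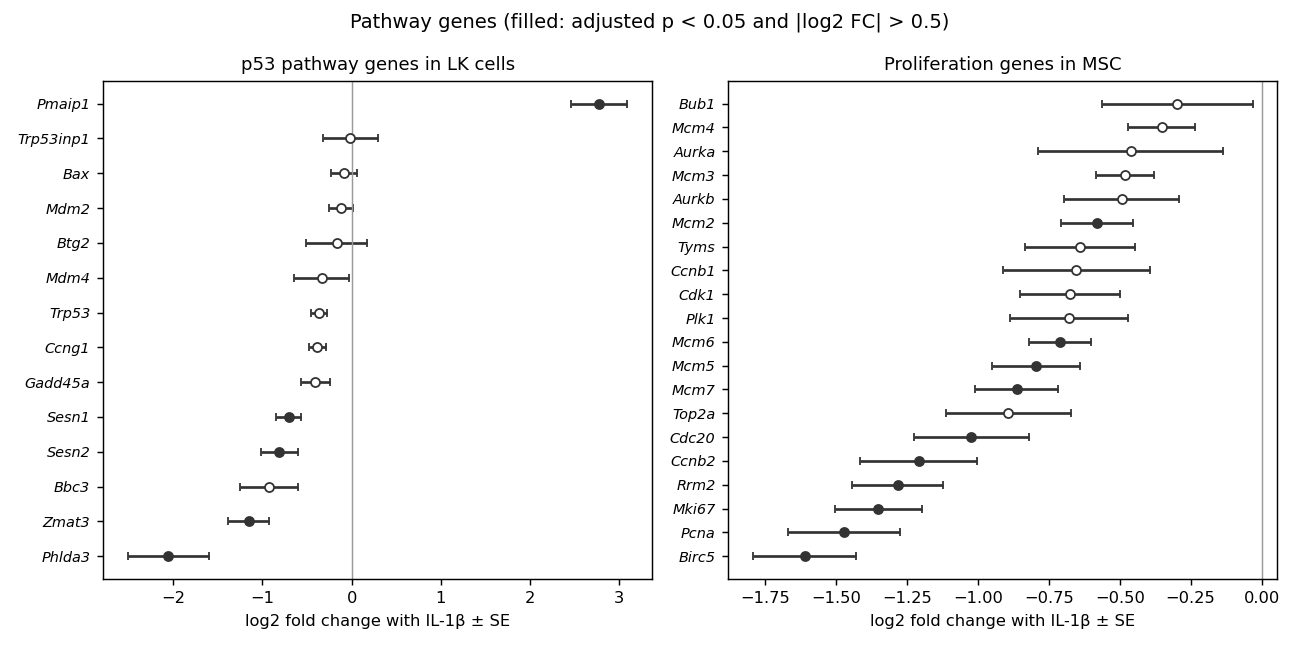
Log2 fold change with IL-1β (horizontal axis) and its standard error for the p53 pathway genes in LK libraries (left) and the proliferation genes in MSC libraries (right), with filled points for called genes. In LK 4 filled points lie below 0 and Pmaip1 lies at 2.78, and in MSC all 20 genes lie below 0.

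LSK and LK cells differed in most of these genes under PBS. Of the 8 members tested, 6 were higher in LSK cells and none was higher in LK cells, where 19.4% of all 13839 genes were called higher in LSK and 12.4% lower. The 6 were spread over all families: Cdkn1a and Cdkn1c, Cdkn2c and Cdkn2d, and Ccnd1 and Ccnd2. The libraries of the populations did not overlap for these 6, and 49.3% of all genes were separated in this way. The members' median log2 difference was 0.77, beside 0.09 over all genes tested. Markers of other cell types differed with them. All 14 erythroid markers were lower in LSK cells and summed to 869 to 967 CPM against 5118 to 6931 CPM in LK cells, and the neutrophil granule markers (5 of 13 lower, none higher) summed to 1990 to 2802 CPM against 4333 to 9234 CPM. Mpo alone made up 1628 to 2021 CPM against 3125 to 6597 CPM of the neutrophil granule sums. Of the 5 megakaryocyte markers tested 4 were higher in LSK cells, with sums of 466 to 571 CPM against 111 to 160 CPM. Their part in the differences between LSK and LK cells was not tested.

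Cdkn1c showed the widest gap. It lay at 3.91 to 7.42 CPM in LSK and at 0.452 to 0.701 CPM in LK cells, where it rests on 7 to 9 counts, a log2 difference of 3.49 ± 0.53 (edgeR adjusted p = 0.000536). Ccnd1 lay at 48.9 to 70.6 CPM in LSK and 14 to 20.1 CPM in LK cells, a log2 difference of 1.93 ± 0.25 (edgeR adjusted p = 0.000198). Cdkn2d was 2.88-fold higher in LSK cells, with a log2 difference of 1.53 ± 0.23 (edgeR adjusted p = 0.00054). These 3 were called under all 16 alternatives run.

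The other differences were smaller and less steady. Ccnd2 differed by 0.75 ± 0.22 (edgeR adjusted p = 0.0202), Cdkn1a by 0.80 ± 0.24 (adjusted p = 0.0259) and Cdkn2c by 0.54 ± 0.17 (adjusted p = 0.0301). With a PBS library left out, all 3 were lost without LSK replicate 1, LK replicate 1 or LK replicate 2, Cdkn1a was also lost without LSK replicate 3, and Cdkn2c without LK replicate 3. Cdkn2c fell under the fold threshold with DESeq2's size factors (0.48), and Cdkn1a and Cdkn2c were lost with no filter on low counts (adjusted p = 0.127 and 0.139). Cdkn1b (0.42 ± 0.28, adjusted p = 0.278) was called only without LSK replicate 2. Ccnd3 gave 0.17 ± 0.18.

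Beside the erythroid markers, which were all lower in LSK cells too, all 3 E- and A-type cyclins tested, which drive S phase with CDK2, were lower in LSK than in LK cells under PBS: Ccne1 by a log2 difference of -3.02 ± 0.26 (edgeR adjusted p = 1.8e-05), Ccne2 by -1.14 ± 0.19 (adjusted p = 0.000907) and Ccna2 by -0.68 ± 0.19 (adjusted p = 0.0192). Cdk6 (0.75 ± 0.23, adjusted p = 0.0257) and Rbl2, which encodes p130 (0.56 ± 0.17, adjusted p = 0.0234), were higher in LSK cells and Rb1 lower (-1.18 ± 0.22, adjusted p = 0.00191). Of the E2F and DP factors E2f7 was higher and E2f4 and Tfdp1 were lower, and of the 20 proliferation genes 3 (Rrm2, Plk1 and Ccnb1) were lower and none higher. Among the p27 turnover genes Foxo1, Foxo3 and Foxo4, which activate Cdkn1b transcription in quiescent cells, were higher in LSK cells (log2 differences 1.39 ± 0.29, 0.86 ± 0.20 and 0.83 ± 0.20), and Rnf123 and Cops5 were lower. The p53 pathway was divided, with 4 of 14 higher (Trp53inp1, Pmaip1, Btg2 and Sesn1) and 3 lower (Zmat3, Gadd45a and Ccng1).

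**Figure D5:**
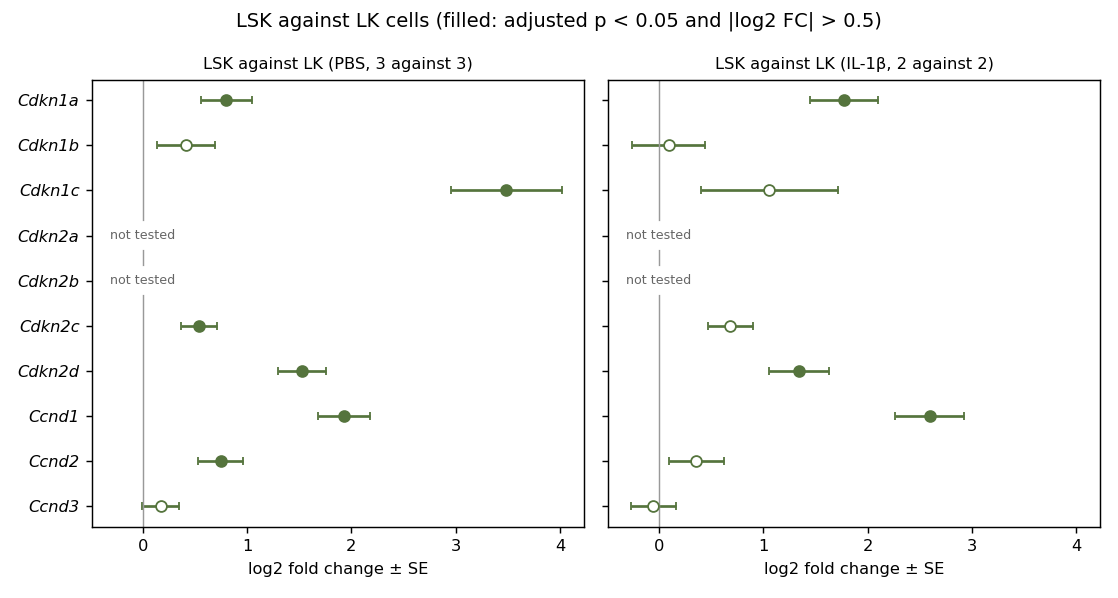
Log2 difference of LSK against LK cells (horizontal axis) with its standard error for each gene under PBS (left) and IL-1β (right), with filled points for called genes. Under PBS 6 points are filled and all 8 lie above 0, and under IL-1β Cdkn1a, Cdkn2d and Ccnd1 are filled.

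Under IL-1β 3 of the 8 members were higher in LSK than in LK cells, where 2.13% of all genes were called higher and 2.27% lower. Higher genes made up 48.4% of all calls under TMM scaling and 61.5% under upper-quartile scaling. Ccnd1 lay at 57.5 and 34.6 CPM in LSK and at 8.91 and 6.39 CPM in LK cells (log2 difference 2.59 ± 0.33, edgeR adjusted p = 0.0018) and was called under all 14 alternatives run. Cdkn1a lay at 17.3 and 13.7 CPM in LSK and at 5.37 and 3.72 CPM in LK cells (1.78 ± 0.33, adjusted p = 0.0113). Cdkn2d lay at 43.5 and 55 CPM in LSK and at 22.8 and 16.2 CPM in LK cells (1.34 ± 0.29, adjusted p = 0.023). The libraries did not overlap for 5 of the 8 members, beside 57% of all genes. Cdkn1a was lost without LSK replicate 1 (adjusted p = 0.0584), Cdkn2d without LSK replicate 2 (adjusted p = 0.102), and both without either LK library or in limma-voom. Cdkn1c no longer passed (1.06 ± 0.66, adjusted p = 0.38), and Cdkn2c (0.68 ± 0.22, adjusted p = 0.0953) passed only in DESeq2 (adjusted p = 0.036).

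Whether LSK and LK cells responded differently to IL-1β was tested as the difference of their log2 fold changes in a fit of all 10 libraries. None of the 8 members was called by edgeR, nor by DESeq2 or limma-voom, and of all genes 0.0289% were, with 1967 genes at an unadjusted p under 0.05. Cdkn1c came nearest, with a difference of -2.43 ± 0.84 (unadjusted p = 0.0131, edgeR adjusted p = 0.245), followed by Cdkn1a with 0.97 ± 0.40 (unadjusted p = 0.0325, edgeR adjusted p = 0.312). Ccnd1, which fell in LK cells, differed by 0.67 ± 0.40 (edgeR adjusted p = 0.467). The fall of Cdkn1a, Cdkn2c and Ccnd1 in LK cells is therefore not shown to be absent from LSK cells.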

How the data were processed

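The files of 14 libraries hold, as deposited, counts of read pairs on each gene. Per the labels, methods and file headers, the authors prepared rRNA-depleted libraries, trimmed reads with fastp 0.20.0, aligned them with HISAT2 2.0.1 and counted them reverse-stranded with featureCounts 2.0.2 on Ensembl release 100 genes (GRCm38). The methods also name GenomicAlignments. Without normalization, the counts as deposited sum to 4393233 to 30871055 read pairs per library. Pairs that fit several places or genes are lost by these defaults, so paralogs can be undercounted. The floor of 3 counts covers counting error only, as PCR duplicates were not removed by molecular identifiers. Gene symbols were matched for 55141 of 55487 identifiers. Coordinates of genes are those of the deposited tables.

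Counts were tested with edgeR 4.0.16 in R 4.3.3 (filterByExpr, TMM, robust glmQLFit, glmQLFTest) within each population by treatment. LSK and LK cells were compared in 1 fit of their 10 libraries. Calls need a Benjamini-Hochberg adjusted p under 0.05 over all genes tested and a log2 fold change past 0.5 in either direction. A standard error is the size of the log2 fold change divided by the square root of F. Levels are CPM after TMM over all 14 libraries, or TPM from the deposited gene lengths for comparisons between genes. Cdkn2a and Cdkn2b did not pass the filter in LSK and LK cells, so 8 members were tested there. The scripts were tested on simulated data.

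LSK and LK libraries of the same number correlated around their group means (0.157, 0.114 and 0.415 under PBS and 0.116 under IL-1β). Of the unlike numbers under PBS, LSK replicate 2 with LK replicate 1 reached 0.151, and the rest ran from -0.336 to 0.073. With 2 libraries per group under IL-1β, like-numbered pairs must share 1 value. The labels do not give this pairing, and the main fits did not use it, so their p-values are unpaired. Blocking on it in an alternative fit changed no call of a member between LSK and LK cells.

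The members and the gene lists were chosen with earlier results of these data known. One of the stem cell markers is not reported here. All 10 members are named. Of the lists other than cell type markers, genes are named where they were called, at most the 4 with the largest fold in each direction. Cdk2, Cdk4, Cdk6 and, in LK cells, Trp53, Mdm2, Bax and Btg2 are named besides. Alternatives were DESeq2 1.42.0, limma-voom (limma 3.58.1), other size factors, no or a fixed filter on low counts, no fold threshold, a replicate block, a joint fit and each replicate left out. The MSC table header names a further IL-1β library without a column, which was not analysed here. Figures were drawn with matplotlib 3.10.9.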

Additional observations from a re-analysis of the deposited data

Results flagged for a closer look

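The libraries of Cdkn1c lay on opposite sides of PBS with IL-1β in LSK and LK cells, although neither change passed the test (edgeR adjusted p = 0.241 and 0.537). Both IL-1β libraries of LSK cells (2.08 and 1.55 CPM) were below all PBS libraries (3.91 to 7.42 CPM), and both of LK cells (0.732 and 1.04 CPM) were above all PBS libraries (0.452 to 0.701 CPM). Of all genes tested, 39.5% in LSK and 48.5% in LK cells did not overlap between treatments. The difference of the log2 fold changes, LSK minus LK, was -2.43 ± 0.84 and missed the threshold (edgeR adjusted p = 0.245). It lay between -2.63 and -2.13 under the 19 alternatives run, none of which called it. The LK values rest on 6 to 9 counts per library. No group has the 4 samples that a test for single outlying libraries needs.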

How the results depend on the processing

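In LSK cells 0 members were called under every alternative run. In LK cells the 3 lower members became 1 with limma-voom and 1 with the joint fit of LSK and LK libraries, and 0 to 3 when each replicate was left out. Higher members went from 0 to 1 (Cdkn2d) with DESeq2, with no filter on low counts and without PBS replicate 3. In MSC the 5 lower members were called under every alternative with all libraries, and 0 to 6 with a replicate left out. A lone library left in a group was assumed to vary like the other group. Higher in LSK than LK cells under PBS were 6 members, 4 to 6 under other settings and 3 to 7 with a replicate left out. Under IL-1β 3 became 1 with limma-voom, 1 to 4 under all settings with every library, and 1 to 2 with a replicate left out. The cause of these changes was not tested.

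The values that changed sign were not called. With a replicate left out, log2 fold changes ranged over -0.34 to 0.11 (Ccnd3) and -0.64 to 0.25 (Ccnd2) in LSK, -0.43 to 0.046 (Cdkn1b) in LK and -0.78 to 0.22 (Cdkn2b, called only at -0.78) in MSC. LSK against LK under IL-1β ranged over -0.18 to 0.29 (Cdkn1b, with -0.029 without LSK replicate 2), -0.19 to 0.73 (Ccnd2) and -0.31 to 0.11 (Ccnd3, also 0.034 with upper-quartile factors). The difference of the responses ranged over -0.072 to 0.37 (Cdkn2c), -0.38 to 0.13 (Cdkn2d, with 0.022 without LSK IL-1β replicate 1) and -0.49 to 0.041 (Ccnd3). Of the 722 values recomputed, 654 kept direction and side of the threshold, 48 lost the call, 7 gained one and 13 changed sign.

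Treatments share replicate numbers only, since their mice differ. With the replicate number as a block, 1 member (Cdkn2d, 0.88, edgeR adjusted p = 0.00843) was called higher in LK cells, besides the same 3 lower calls. All genes called went from 42 higher and 41 lower to 314 and 388 in LSK, and from 869 and 330 to 1462 and 869 in LK cells. Blocking LSK and LK libraries of a number and treatment changed no member's call (6 higher under PBS, 3 under IL-1β). This last setting was chosen after seeing the data. For all genes it moved the lower calls for the difference of the responses from 3 to 23. No paired analysis was possible for MSC because its treatments share only replicate number 2.

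Counts over all genes moved as well. In LSK cells 42 higher and 41 lower genes became 417 and 488 with DESeq2, 19 and 2 with limma-voom, 355 and 514 with no filter, 547 and 681 in the joint fit, and 0 to 280 with a replicate left out. In LK cells 869 and 330 became 421 and 68 in the joint fit, 330 lower became 190 with limma-voom and 693 with no filter, and a replicate left out gave 61 to 1499 higher and 5 to 910 lower. In MSC 945 and 570 became 1439 and 915 with no filter, and 38 to 2038 and 0 to 1781 with a replicate left out. For LSK against LK under PBS, 2678 higher and 1716 lower became 1677 and 1064 without LK replicate 1. Under IL-1β 295 and 314 became 654 and 682 with DESeq2, 63 and 127 with limma-voom, 716 and 694 with no filter, 491 and 486 with only those libraries, and 20 to 191 and 69 to 276 with a replicate left out. For the difference of the responses 1 and 3 became 112 and 220 with DESeq2, 1 and 0 with limma-voom, 170 and 228 with no filter, and 0 to 167 and 0 to 169 with a replicate left out. The number of members with their highest mean in MSC was 6, or 5 when libraries were scaled by total alone. In LSK cells, which include the shallowest library (4393233 read pairs), a count of 0 allows up to 0.665 CPM. The biological coefficient of variation was 0.377 in LSK against 0.183 in LK cells, and the part of depth in the lower LSK counts was not tested.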

Other observations

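For Cdkn1c and Ccnd1, the genes whose log2 CPM followed them most closely over the 14 libraries, of 11056 compared, are given as a description. For Cdkn1c these were Slco2b1 (Pearson r = 0.966), Arhgap25 (0.966) and Zfand5 (0.958). For Ccnd1 they were Otud1 (0.964), Hivep3 (0.964) and Gm42517 (0.963). The 14 libraries fall into 3 cell populations, so these values mostly describe the order of the populations, and they carry no p.

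The PBS-treated MSC libraries differed from each other beyond Xist. Cxcl12, a stromal chemokine, lay at 361 CPM in replicate 2 and 84.8 CPM in replicate 3, Col1a1 at 963 and 492 CPM, and Lum at 4.93 CPM in replicate 2 and at 0 in replicate 3. Pdgfra (25.2 and 39.9 CPM) and Vcam1 (27.4 and 34.4 CPM) were higher in replicate 3. In the same pair Cdkn1c lay at 233 and 117 CPM and Cdkn2b at 31.5 and 16.2 CPM, whereas Ccnd1 lay at 249 and 331 CPM and Cdkn2c at 25.4 and 34.4 CPM.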
